A study of Homo sapiens and Mus musculus with 55 samples.

Results

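The 30 genes described here encode enzymes of cholesterol and fatty acid synthesis, the proteins that switch these enzymes on and off, and a pair of sterol export genes. They were listed by symbol, with earlier results of these data known: 6 enzymes of the mevalonate steps, 11 of the steps from squalene to cholesterol, 6 genes of control and sterol transport, 5 of acetyl-CoA use and fatty acid synthesis, and 2 of export. All 30 were listed in each of 10 deposited tables, of which the largest lists 36036 genes. In the mouse tables the same genes were read by title-case symbol, with Cyp51 for CYP51A1 and Scd1 for SCD. The series measured RNA in 55 libraries of 4 breast cancer cell lines, and its title concerns MYC, STING and the response of triple-negative breast cancer to checkpoint blockade. Human triple-negative cells were MDA-MB-436 and SUM159PT, and mouse mammary tumour cells were 4T1 and Py230. In each human line, parental cells were compared with cells labelled Tax-R, both labelled as given no treatment; the labels do not spell out Tax-R. Both Tax-R lines, and 4T1 cells with no such label, received a control siRNA (siC) or one of 2 MYC siRNAs (siMYC1 and siMYC2). Cells of both human lines labelled Mock were compared with 2 groups that carry a STING sgRNA, labelled C1 and C2; the labels do not say whether these are clones. Cells of both human lines with a STING sgRNA carried in addition the open reading frame (ORF) of GFP or of STING, so that the control of this comparison has the sgRNA too. Py230 cells, all with a Sting1 shRNA, received vehicle or doxycycline. Human groups had 2 libraries and mouse groups 3, and the labels give no dose, time or passage.

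Cholesterol is built from acetyl-CoA through mevalonate and squalene, and fatty acids are built from the same acetyl-CoA. SREBP-2 (gene SREBF2) and SREBP-1 (SREBF1) are membrane-bound transcription factors that SCAP escorts to the Golgi when sterols run low, where they are cut and released to switch on these enzymes; INSIG1 and INSIG2 hold SCAP back when sterols are plentiful, and INSIG1 is itself an SREBP target. When sterols accumulate, the liver X receptors switch on export genes, among them ABCA1, a pump that loads cholesterol onto apolipoproteins, and APOE, a lipid-carrying apolipoprotein.

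The RefSeq promoter table (build GRCh38.p14) held 26 of the 30 genes, in 37 windows because some have several starts, and not FDFT1, SQLE, ACAT2 and FASN. Windows of 300 bases, 250 before and 50 after the gene start, were searched on both strands for 3 motifs: a sterol element core (TCACNCCAC), the NF-Y box (CCAAT) and the E-box that MYC-MAX dimers can bind (CACGTG). The NF-Y box was in 20 of the 26 genes (76.9%), against 39.7% of 27305 genes in the table. The E-box was in 5 (ABCA1, INSIG1, LSS, SC5D and SCAP; 19.2%), against 8.77%. The sterol element core was in 1 gene, SREBF2 (3.8%), against 1.39%. A match is a description of letters and not a binding site, and no motif overlaps another in the stretches below. They are the 250 bases before the gene start of INSIG1, HSD17B7 and SREBF2, whose transcripts moved together in several comparisons, and of MSMO1, which has 4 NF-Y boxes; capitals mark the motifs found.
INSIG1 (chr7:155297628-155297877, + strand): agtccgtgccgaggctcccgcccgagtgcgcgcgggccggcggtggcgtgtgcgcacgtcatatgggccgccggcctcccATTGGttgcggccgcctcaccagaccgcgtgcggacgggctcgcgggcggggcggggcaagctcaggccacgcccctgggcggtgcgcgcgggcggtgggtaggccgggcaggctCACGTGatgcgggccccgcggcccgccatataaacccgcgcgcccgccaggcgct
HSD17B7 (chr1:162790452-162790701, + strand): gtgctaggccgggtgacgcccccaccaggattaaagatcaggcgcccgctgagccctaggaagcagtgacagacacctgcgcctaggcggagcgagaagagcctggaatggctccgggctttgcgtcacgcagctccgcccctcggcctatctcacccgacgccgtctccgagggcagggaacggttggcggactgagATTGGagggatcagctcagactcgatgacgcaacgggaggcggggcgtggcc
SREBF2 (chr22:41832855-41833104, + strand): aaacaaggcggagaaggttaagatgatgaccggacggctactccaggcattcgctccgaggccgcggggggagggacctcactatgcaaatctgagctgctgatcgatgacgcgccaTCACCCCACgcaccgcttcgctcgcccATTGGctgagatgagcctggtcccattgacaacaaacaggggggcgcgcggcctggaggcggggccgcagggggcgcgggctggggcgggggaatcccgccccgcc
MSMO1 (chr4:165327419-165327668, + strand): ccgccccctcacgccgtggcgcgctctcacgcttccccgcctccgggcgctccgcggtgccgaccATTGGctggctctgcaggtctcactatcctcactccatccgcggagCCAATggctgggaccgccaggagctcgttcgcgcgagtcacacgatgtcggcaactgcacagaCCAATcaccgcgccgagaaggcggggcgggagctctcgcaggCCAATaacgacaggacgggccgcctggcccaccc
INSIG1 carries 1 NF-Y box (written ATTGG on this strand) and 1 E-box, HSD17B7 carries 1 NF-Y box here and a second after its start, and SREBF2 carries the sterol element core followed by 1 NF-Y box.

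Values are normalized counts, each table scaled on its own, so levels are compared only within a table. Changes are log2 fold changes on log2(normalized count + 1) ± SE, and a gene is said to rise or fall only where limma's adjusted p over all tested genes was below 0.05; with 2 perturbed groups the change is their mean minus the control. Libraries held 5663610 to 13191675 reads, and where nothing names separate cultures a p-value measures only the spread between these libraries. The targeted transcripts moved unevenly. MYC was at 2058 and 2019 in MDA-MB-436 Tax-R control libraries and 1897 to 1930.1 with its siRNAs (fell by 0.09 ± 0.03). DESeq2 did not call this change (adjusted p = 0.109). MYC was at 2727 and 2663 against 1426 to 1538 in SUM159PT (fell by 0.87 ± 0.04), and at 2390.0 to 2595 against 2220.3 to 2407 in 4T1 libraries, where the groups overlapped (-0.09 ± 0.04, adjusted p = 0.0683 by limma and 0.0374 by edgeR). STING1 fell by 1.85 ± 0.15 and 1.28 ± 0.11 with the sgRNA in MDA-MB-436 and SUM159PT, rose by 4.47 ± 0.16 and 4.37 ± 0.12 with the ORF, and fell by 4.14 ± 0.09 with doxycycline in Py230. Markers of hepatocytes, which make much cholesterol, summed to at most 4.65 in any group. Of the leukocyte markers, PTPRC was at 2047 ± 92.8 in parental MDA-MB-436 and 533 ± 21.1 in parental SUM159PT libraries (SD, n = 2), and CD68, a macrophage marker, was at most 13.9 in any group of human libraries. In bulk RNA, fewer cells with a transcript and less of it per cell cannot be told apart.

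**Figure D1:**
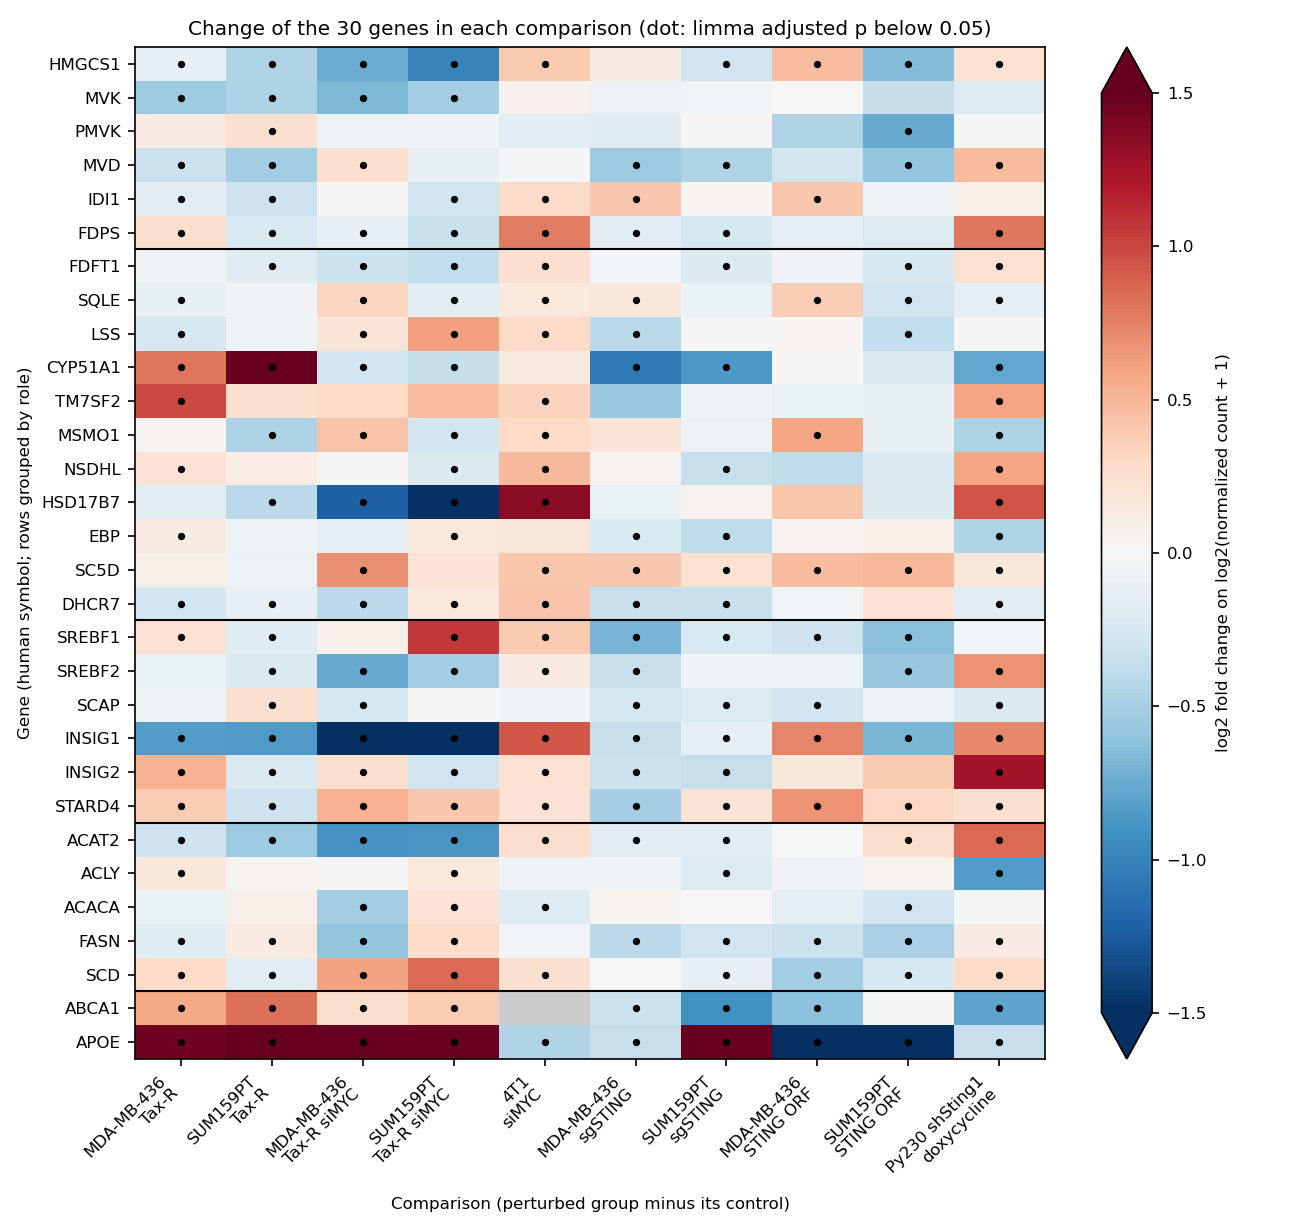
Log2 fold change of the 30 genes (rows, grouped by role: mevalonate steps, squalene to cholesterol, control and transport, acetyl-CoA and fatty acids, export) in the 10 comparisons (columns), coloured from blue (lower) to red (higher) and capped at 1.5 in either direction; grey is not tested and a dot marks limma adjusted p below 0.05. APOE is deep red in the Tax-R and human MYC siRNA columns and deep blue in the STING ORF columns, and INSIG1 is deep blue with MYC siRNA in the human lines and red in 4T1.

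Over the 10 comparisons the 30 genes gave 299 tested pairs of gene and comparison, because Abca1 was below the mean of 10 in 4T1. Of these, 89 were higher, 116 lower and 94 did not pass. In the single comparisons, 21.1% to 69.5% of all tested genes passed. INSIG1, STARD4 and APOE passed in all 10 comparisons, and PMVK, a kinase of the mevalonate steps, in 2. When 1 library was left out, APOE lost its call in 4T1, in Py230 and with the sgRNA in MDA-MB-436. INSIG1 lost it with the sgRNA in SUM159PT. STARD4 lost it with MYC siRNA in MDA-MB-436 and 4T1, with the sgRNA in SUM159PT and with both ORFs of STING. In 27 genes the calls went both ways, and how many genes outside the 30 did so was not counted. The exceptions were MVK, TM7SF2 and SC5D. MVK, the first kinase of the pathway, had 4 calls, all lower. TM7SF2, a sterol reductase, had 3 and SC5D, a late sterol desaturase, had 7, all higher.

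INSIG1 and MVK transcript was lower in Tax-R than in parental cells of MDA-MB-436. Transcript of APOE, TM7SF2, CYP51A1, ABCA1 and INSIG2 was higher in the Tax-R libraries of this line. In SUM159PT the same direction held for INSIG1, MVK, APOE, CYP51A1 and ABCA1, while INSIG2 fell. Of the 30 genes, 12 rose and 10 fell in MDA-MB-436, where 54.6% of all tested genes passed (27.7% higher, 26.9% lower). In SUM159PT 6 rose and 16 fell, where 45.7% passed (23.5% higher, 22.1% lower). The median change of the 30 was -0.01 and -0.15, against 0.01 for all tested genes in both lines. Over most genes the MDA-MB-436 Tax-R libraries differed by no more than sampling noise (chi-square per gene 0.85 over 18264 genes), but over the 21 genes of at least 20000 reads they differed by more (20.9), so both were kept. Counted as 1 library, 19 of the 30 genes passed, and HMGCS1, SQLE and EBP no longer did (adjusted p = 0.0843, 0.162 and 0.0979, limma).

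In the mevalonate steps, 1 gene rose and 4 fell in MDA-MB-436 Tax-R cells, and 1 rose and 5 fell in SUM159PT. HMGCS1, the synthase that feeds the pathway, was at 1161 and 1169 in parental against 1078 and 1057 in Tax-R MDA-MB-436 libraries. SUM159PT libraries were at 1904 and 1982 against 1424 and 1408. The groups did not overlap in either line, and the change was larger in SUM159PT (-0.13 ± 0.04 and -0.46 ± 0.04; the difference between lines was not tested). MVK was at 371 and 356 against 234 and 268 in MDA-MB-436 and at 483 and 477 against 319 and 380.2 in SUM159PT (-0.53 ± 0.07 and -0.46 ± 0.08). MVD, the decarboxylase that makes isopentenyl diphosphate, fell in both lines (-0.32 ± 0.06 and -0.52 ± 0.08), as did IDI1, its isomerase (-0.16 ± 0.04 and -0.31 ± 0.04). FDPS, which joins isoprene units into farnesyl diphosphate, rose in MDA-MB-436 (0.23 ± 0.06) and fell in SUM159PT (-0.23 ± 0.05). PMVK was at 307 and 308 against 321 and 352 in MDA-MB-436 (0.13 ± 0.06, adjusted p = 0.116, limma) and rose in SUM159PT (0.24 ± 0.07).

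Of the 11 genes from squalene to cholesterol, 4 rose and 3 fell in MDA-MB-436, and 1 rose and 4 fell in SUM159PT. CYP51A1, the lanosterol demethylase, rose in both lines. It was at 61.4 and 64.6 in parental and 99.1 and 123 in Tax-R MDA-MB-436 libraries, and at 35.6 and 41.4 against 154 and 153 in SUM159PT. All Tax-R libraries were above all parental ones (0.80 ± 0.14 and 1.98 ± 0.15; adjusted p = 0.000573 and 5.54e-06, limma), although without the first parental library the MDA-MB-436 value was 0.77 with adjusted p = 0.0536. CYP51A1 lies on chromosome 7, 21 protein-coding genes from ABCB1, the drug efflux pump, by RefSeq gene order. ABCB1 was at 56.25 and 53.95 against 2733 and 2789 in MDA-MB-436, and at 359.8 and 356 against 2706 and 2703 in SUM159PT. After these values were seen, the 40 genes on either side of CYP51A1 were examined: 52 of 59 tested rose and 4 fell in MDA-MB-436 Tax-R cells, and 51 of 59 rose and 3 fell in SUM159PT, where 27.7% and 23.5% of all tested genes rose. The neighbours' median change was 1.41 and 1.57. Between ABCB1 and CYP51A1, 14 of 15 tested genes rose in both lines. The adjoining AKAP9, a scaffold protein, rose by 1.33 ± 0.03 and 1.44 ± 0.04, and KRIT1, a cell junction protein, by 1.32 ± 0.04 and 1.14 ± 0.04. CYP51A1-AS1, on the other strand over CYP51A1, rose by 2.07 ± 0.31 and 2.69 ± 0.42, and the strand used in counting is not stated, so reads of both cannot be told apart. What these neighbours share beyond position was not tested.

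**Figure D2:**
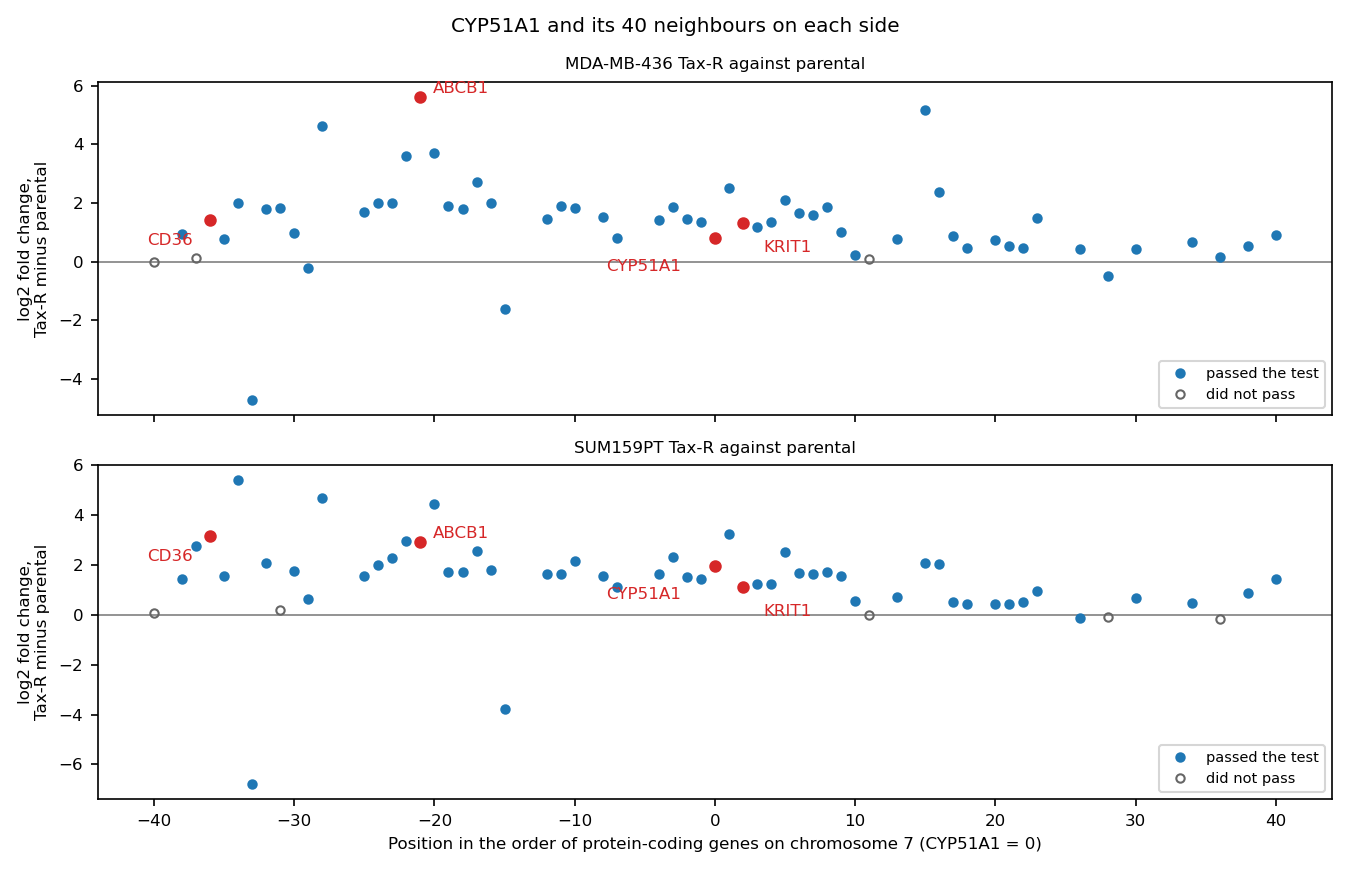
Log2 fold change of Tax-R against parental libraries (y axis) for CYP51A1 and the tested genes among 40 neighbours on either side, by their order among protein-coding genes of chromosome 7 (x axis, CYP51A1 at 0); filled points passed limma's test, open points did not, and CYP51A1, ABCB1, CD36 and KRIT1 are in red. Most points lie above 0 in both lines, with medians of 1.41 in MDA-MB-436 and 1.57 in SUM159PT.

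Other enzymes of the later steps went both ways. TM7SF2, a sterol reductase, was at 44.3 and 66.5 against 109 and 109 in MDA-MB-436 (0.99 ± 0.18), and at 69.1 and 61.5 against 74.7 and 80.2 in SUM159PT (0.24 ± 0.15, adjusted p = 0.23, limma). HSD17B7, a sterol ketoreductase, fell in SUM159PT (378 and 371 against 297 and 275; -0.39 ± 0.07), and in MDA-MB-436 it was at 293 and 259 against 251 and 244 (-0.15 ± 0.08, adjusted p = 0.108, limma). HSD17B7P2, its near copy, was at 48.07 to 69.12 in the SUM159PT libraries (-0.40 ± 0.17, adjusted p = 0.0835, limma). In MDA-MB-436 the copy was at 34.88 to 46.04 (-0.16 ± 0.19, adjusted p = 0.521, limma). Whether reads of the copy were counted for HSD17B7 was not tested. MSMO1, which removes methyl groups from sterols, fell in SUM159PT (-0.46 ± 0.04) and overlapped the parental libraries in MDA-MB-436 (0.02 ± 0.05, adjusted p = 0.693, limma). DHCR7, the last reductase before cholesterol, fell in both lines (-0.29 ± 0.05 and -0.13 ± 0.04). LSS, the lanosterol synthase, fell in MDA-MB-436 (-0.26 ± 0.04), where NSDHL and EBP rose (0.22 ± 0.05 and 0.13 ± 0.04). FDFT1, the squalene synthase, fell in SUM159PT (-0.18 ± 0.04), and SQLE, the squalene epoxidase, fell by 0.11 ± 0.04 in MDA-MB-436.

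Among the control genes INSIG1 moved the most in either Tax-R line. It was at 666 and 665 in parental and 323 and 428 in Tax-R MDA-MB-436 libraries. For SUM159PT the values were 1519 and 1495 against 838 and 836. The groups lay well apart in both lines (-0.84 ± 0.10 and -0.85 ± 0.04; adjusted p = 2.88e-05 and 2.08e-07, limma). INSIG2, whose protein does the same work, rose in MDA-MB-436 (500.3 and 518 against 731 and 734; 0.52 ± 0.04) and fell in SUM159PT (683 and 668 against 569 and 596; -0.21 ± 0.05). STARD4, a cytosolic sterol carrier, likewise rose in MDA-MB-436 (0.38 ± 0.06) and fell in SUM159PT (-0.32 ± 0.04). SREBF1 rose by 0.23 ± 0.06 and fell by 0.18 ± 0.05, and SREBF2 fell in SUM159PT (-0.22 ± 0.04), where SCAP rose (0.24 ± 0.04). SREBF1 in MDA-MB-436 lost its call without either parental library (0.27 and 0.18) or the second Tax-R library (0.135). Of the genes of acetyl-CoA use and fatty acid synthesis, ACAT2 fell in both lines (-0.31 ± 0.07 and -0.54 ± 0.07). It encodes a cytosolic thiolase at the head of the mevalonate route. ACLY, which makes cytosolic acetyl-CoA, rose in MDA-MB-436 (0.17 ± 0.04). SCD, the stearoyl-CoA desaturase, rose in MDA-MB-436 (0.30 ± 0.04) and fell in SUM159PT (-0.16 ± 0.04). FASN, the fatty acid synthase, fell by 0.18 ± 0.04 in MDA-MB-436 and rose by 0.13 ± 0.04 in SUM159PT, and the latter was 0.00 after quantile normalization.

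Both export genes rose in Tax-R cells of both lines. APOE was at 53.7 and 64.6 in parental and 151 and 176 in Tax-R MDA-MB-436 libraries. In SUM159PT it was at 71.1 and 87.3 against 297 and 261. No Tax-R library overlapped a parental one (1.46 ± 0.14 and 1.81 ± 0.13; adjusted p = 4.24e-06 and 3.35e-06, limma). ABCA1 was at 1533 and 1445 against 2108 and 2325 in MDA-MB-436, and at 1182 and 1231 against 2087 and 2180.1 in SUM159PT (0.57 ± 0.05 and 0.82 ± 0.04). Markers of other cell types moved with the Tax-R label. PTPRC, a leukocyte marker, was lower in Tax-R cells, from 2047 ± 92.8 to 309 ± 94.3 and from 533 ± 21.1 to 5.05 ± 1.54 (SD, n = 2), and CD68 was at 3.04 or below in all 4 groups. The 4 basal markers listed summed to 1666 to 1692 in parental and 542 to 652 in Tax-R MDA-MB-436 libraries, and to 491 to 543 against 67.5 to 76.2 in SUM159PT, where the 3 endothelial markers summed to 231 to 235 against 97.2 to 118. The part of these markers in the results was not tested. APOC1, the gene beside APOE, rose by 0.56 ± 0.10 in MDA-MB-436 and was at 0.18 ± 0.11 in SUM159PT (adjusted p = 0.222, limma). Of 49 other sterol and lipid genes listed for comparison, 22 of 47 tested rose and 10 fell in MDA-MB-436, and 12 of 47 rose and 16 fell in SUM159PT. CD36, a fatty acid carrier and one of the neighbours of CYP51A1, rose by 1.41 ± 0.06 and 3.17 ± 0.06. ABCG1, another sterol exporter, rose by 1.59 ± 0.30 in SUM159PT and by 0.999 without the first parental library. When 1 library was left out, 9 of 22 calls were lost at least once in MDA-MB-436 (HMGCS1, IDI1, SQLE, LSS, CYP51A1, EBP, SREBF1, ACAT2 and FASN) and 6 of 22 in SUM159PT (PMVK, DHCR7, SREBF1, INSIG2, FASN and SCD).

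**Figure D3:**
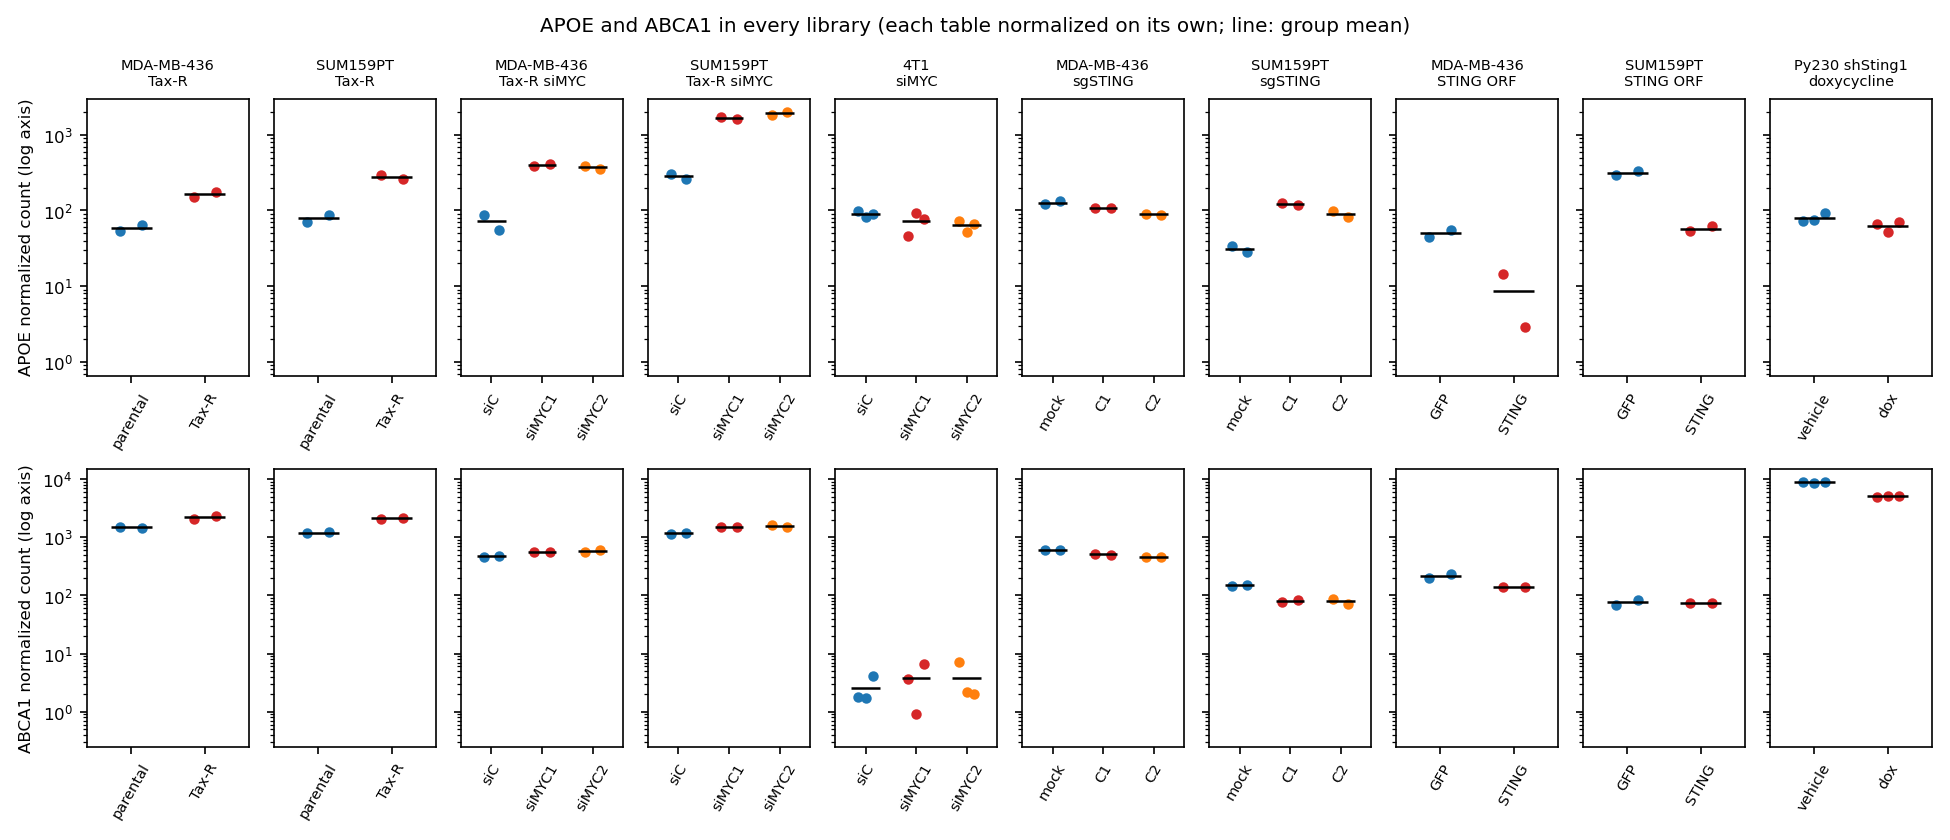
Normalized counts of APOE (top) and ABCA1 (bottom) in every library on log axes, 1 panel for each table, with the control group in blue, the perturbed groups in red and orange and a line at each group mean. APOE lies above its control in the Tax-R and human MYC siRNA panels and in SUM159PT with the STING sgRNA, and below it in both STING ORF panels.

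With MYC siRNA, Tax-R cells of both human lines lost INSIG1, HSD17B7, HMGCS1, ACAT2, MVK and SREBF2 transcript and gained APOE, ABCA1, SCD and STARD4. In 4T1, INSIG1, HSD17B7, HMGCS1, ACAT2 and SREBF2 rose. Of the 30 genes, 10 rose and 13 fell in MDA-MB-436 (67.7% of all tested genes passed, 34% higher and 33.7% lower) and 11 rose and 14 fell in SUM159PT (69.5%, 35% and 34.5%). In 4T1, 19 of 29 rose and 2 fell (46.2% of all tested genes passed, 24.7% higher and 21.5% lower). The median change was -0.04, -0.08 and 0.24, against -0.009, -0.005 and -0.005 for all tested genes. Between siMYC2 and siMYC1 no gene of the 30 passed in any line by limma or by edgeR; at an unadjusted p below 0.05, limma gave 3, 2 and 1 genes and edgeR 4, 2 and 1. Of all tested genes, 0.195% passed limma's test between the siRNAs in MDA-MB-436 (0.0779% higher and 0.117% lower with siMYC2) and 0% in the other lines. Library pairs within the human groups had a chi-square per gene of 1.09 to 1.69, where 1 is sampling noise. Over genes of at least 20000 reads it was 4.17 to 18.5. Counting such pairs as 1 library was not tried.

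**Figure D4:**
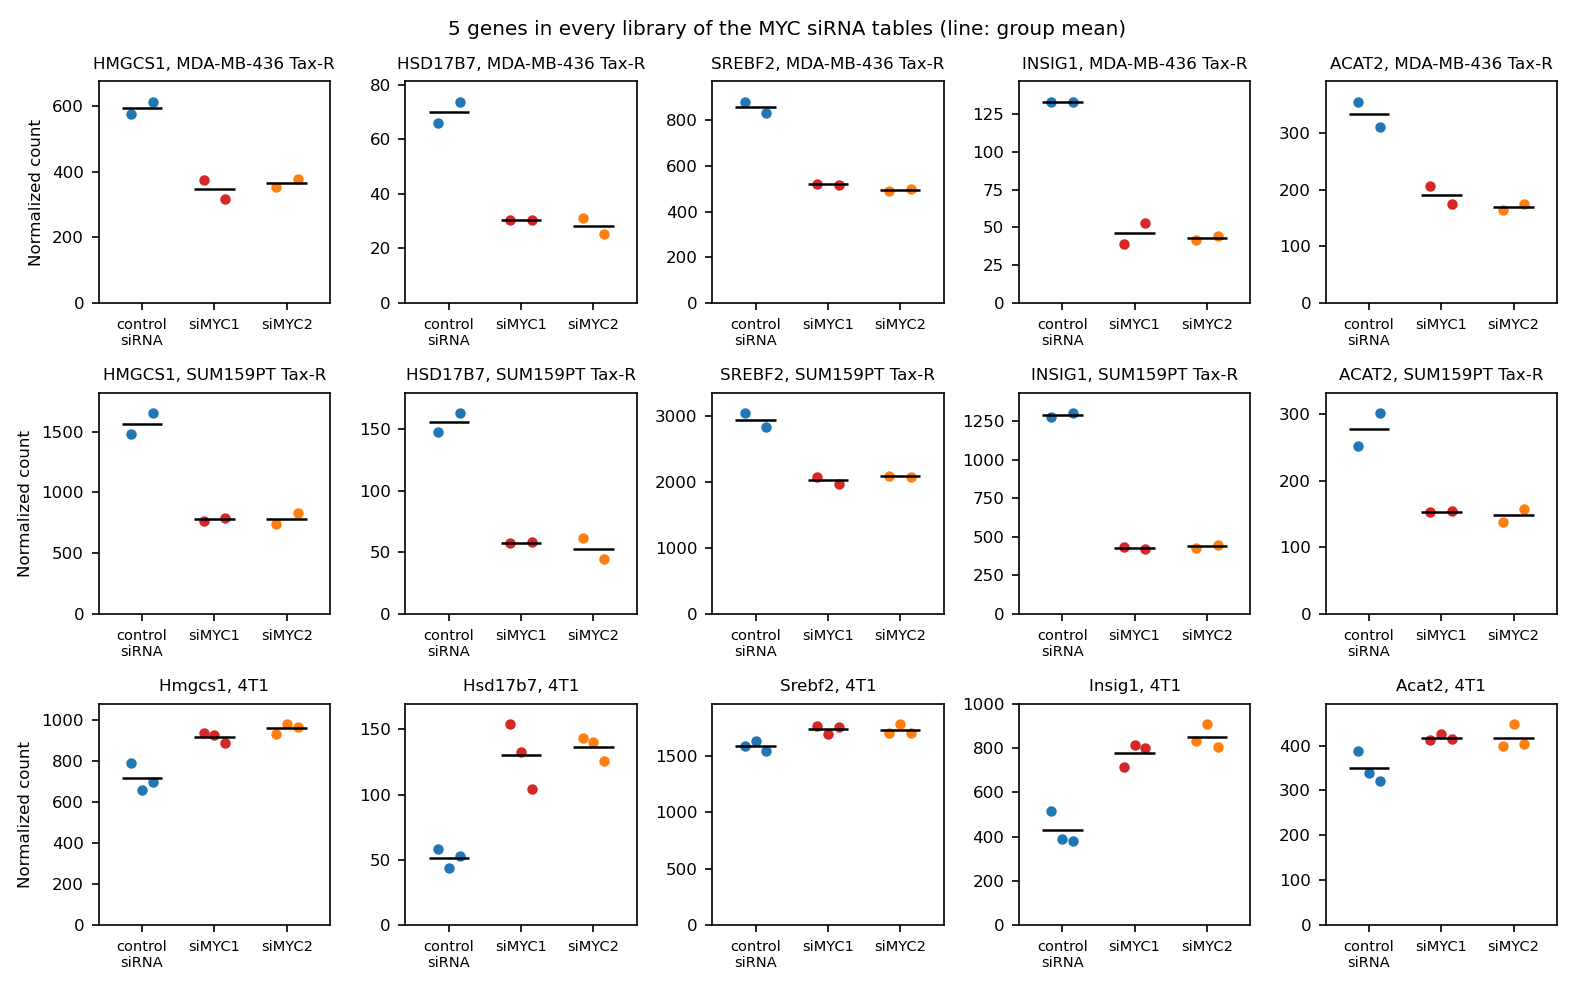
Normalized counts (y axis from 0) of 5 genes (columns) in every library of the MYC siRNA tables (rows: MDA-MB-436 Tax-R, SUM159PT Tax-R and 4T1), by siRNA (x axis), with a line at each group mean. Both MYC siRNA groups lie below the control siRNA in the human rows and above it in the 4T1 row.

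In the mevalonate steps, 1 gene rose and 3 fell in MDA-MB-436, 4 fell in SUM159PT, and 3 rose in 4T1. HMGCS1 was at 576 and 615 with the control siRNA in MDA-MB-436, at 376 and 317 with siMYC1 and at 355 and 378 with siMYC2. The SUM159PT libraries were at 1478 and 1657, then 767 and 792, then 739 and 828. In 4T1 it was at 790.1, 659 and 696 with the control and at 887 to 980.0 in the 6 MYC siRNA libraries. Groups did not overlap in any line, and the siRNA libraries were low in the human lines and high in the mouse line (-0.74 ± 0.07, -1.002 ± 0.054 and 0.39 ± 0.05; adjusted p = 1.02e-10, 7.26e-22 and 9.14e-07, limma). MVK fell in both human lines (-0.67 ± 0.13 and -0.52 ± 0.09), and in 4T1 its groups overlapped (0.06 ± 0.09, adjusted p = 0.605, limma). FDPS fell a little in both human lines (-0.13 ± 0.05 and -0.33 ± 0.05) and rose in 4T1 from a low level, 18.1 to 27.8 against 32.8 to 46.6 (0.78 ± 0.18). IDI1 fell in SUM159PT (-0.30 ± 0.07) and rose in 4T1 (0.29 ± 0.08), and MVD rose in MDA-MB-436 (0.25 ± 0.08). PMVK passed in none of the 3 lines (-0.07 ± 0.10, -0.06 ± 0.10 and -0.17 ± 0.12; adjusted p from 0.283 to 0.616, limma).

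From squalene to cholesterol, 4 genes rose and 4 fell in MDA-MB-436, 3 rose and 6 fell in SUM159PT, and 9 of 11 rose and none fell in 4T1. HSD17B7 moved the most: it was at 66 and 73.8 with the control siRNA and 25.4 to 31.3 with MYC siRNA in MDA-MB-436, and at 148 and 163 against 44.3 to 61.5 in SUM159PT. In 4T1 it was at 58.4, 43.9 and 52.7 against 104 to 154. Every siRNA library was below the controls in the human lines and above them in 4T1 (-1.23 ± 0.19, -1.48 ± 0.15 and 1.35 ± 0.12; adjusted p = 1.54e-06, 1.38e-12 and 1.49e-09, limma). HSD17B7P2, a near copy of HSD17B7, was at 2.07 or below in these human libraries. LSS rose in all 3 lines (0.19 ± 0.06, 0.62 ± 0.04 and 0.28 ± 0.09); in SUM159PT it went from 1353 and 1238 to 1925 to 2027. SC5D, which puts in a double bond late in the pathway, rose in MDA-MB-436 (133 and 132 against 195 to 245; 0.69 ± 0.09) and 4T1 (0.42 ± 0.05). MSMO1 rose in MDA-MB-436 and 4T1 (0.43 ± 0.09 and 0.30 ± 0.05) and fell in SUM159PT (-0.28 ± 0.07), as did SQLE (0.32 ± 0.08, 0.16 ± 0.05 and -0.17 ± 0.06). DHCR7 fell in MDA-MB-436 (-0.40 ± 0.08) and rose in SUM159PT and 4T1 (0.16 ± 0.05 and 0.43 ± 0.08). FDFT1 fell in both human lines (-0.33 ± 0.06 and -0.37 ± 0.05) and rose in 4T1 (0.25 ± 0.06). CYP51A1 fell in both human lines (-0.29 ± 0.10 and -0.36 ± 0.07). Its MDA-MB-436 groups overlapped, and without the second siMYC1 library the value was -0.185 with adjusted p = 0.0824; without the first control library the SUM159PT value was -0.225. Of the neighbours of CYP51A1 within 40 genes, 24 of 55 tested rose and 26 fell in MDA-MB-436. In SUM159PT 22 of 57 rose and 27 fell. Of all tested genes, 34% and 35% rose and 33.7% and 34.5% fell. Between ABCB1 and CYP51A1, 4 of 15 tested genes rose and 10 fell in MDA-MB-436, and 5 rose and 9 fell in SUM159PT. ABCB1 fell (-0.78 ± 0.03 and -0.52 ± 0.04) and AKAP9 rose (0.54 ± 0.03 and 0.34 ± 0.04). NSDHL fell in SUM159PT (-0.22 ± 0.09) and rose in 4T1 (0.48 ± 0.10), and EBP, a sterol isomerase, rose in SUM159PT (0.15 ± 0.06). SUM159PT values of NSDHL were -0.09 (adjusted p = 0.467) and -0.36 without the first or the second control library, and those of SQLE and EBP were -0.09 and 0.10 without the second (limma adjusted p = 0.309 and 0.178). The MDA-MB-436 value of SQLE was 0.17 without the first control library (adjusted p = 0.0892), and the 4T1 value of TM7SF2, 0.34 ± 0.14, was 0.22 without the first (adjusted p = 0.267, limma).

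Among the control genes, INSIG1 was at 133 and 133 with the control siRNA in MDA-MB-436, at 39.1 and 53.1 with siMYC1 and at 41.7 and 44.4 with siMYC2. Values in SUM159PT were 1278 and 1306, then 437 and 424, then 429 and 449. In 4T1 it was at 517, 391 and 378, then 716, 814 and 802, then 834, 911 and 806. The MYC siRNA libraries lay far below the controls in the human lines and far above them in 4T1 (-1.565 ± 0.153, -1.57 ± 0.06 and 0.93 ± 0.07; adjusted p = 4.92e-10, 2.27e-28 and 8.59e-11, limma). SREBF2 was at 882 and 832 against 489 to 523 in MDA-MB-436, at 3045 and 2825 against 1969 to 2089.8 in SUM159PT, and at 1549 to 1634 against 1697 to 1789 in 4T1. It fell in both human lines (-0.75 ± 0.05 and -0.52 ± 0.04) and rose in 4T1 (0.13 ± 0.04), where the value after quantile normalization was 0.04 with adjusted p = 0.432. SREBF1 rose in SUM159PT from 3254 and 2956 to 6387 to 6693 (1.06 ± 0.04, adjusted p = 5.88e-30, limma) and in 4T1 (0.39 ± 0.06), and in MDA-MB-436 its groups overlapped (0.07 ± 0.05, adjusted p = 0.225). STARD4 rose in all 3 lines (0.52 ± 0.14, 0.41 ± 0.07 and 0.21 ± 0.07); the control libraries of MDA-MB-436 were at 94.8 and 64.1, and the value was 0.80 without the first of them and 0.24 with adjusted p = 0.17 without the second. In 4T1 the value of STARD4 was 0.12 without the third control library (adjusted p = 0.184, limma). INSIG2 rose in MDA-MB-436 and 4T1 (0.24 ± 0.07 and 0.22 ± 0.05) and fell in SUM159PT (-0.30 ± 0.08), and SCAP fell in MDA-MB-436 (-0.26 ± 0.05).

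Of the 5 genes of acetyl-CoA use and fatty acid synthesis, ACAT2 included, 1 rose and 3 fell in MDA-MB-436. In SUM159PT 4 rose and 1 fell, while 2 rose and 1 fell in 4T1. ACAT2 was at 356 and 312 against 164 to 207 in MDA-MB-436, at 252 and 302 against 138 to 158 in SUM159PT, and at 387, 339.9 and 321 against 399 to 449 in 4T1 (-0.89 ± 0.09, -0.87 ± 0.10 and 0.26 ± 0.06). SCD was at 11355 and 11757 with the control and 20481 to 20968 with MYC siRNA in SUM159PT, and at 1836 and 1798 against 2592 to 2905 in MDA-MB-436. It rose in both human lines (0.85 ± 0.03 and 0.61 ± 0.03), as Scd1 did in 4T1 (0.24 ± 0.07). FASN fell in MDA-MB-436 from 2177 and 2107 to 1361 to 1468 (-0.59 ± 0.04) and rose in SUM159PT from 4460.4 and 4069 to 4986 to 5339 (0.28 ± 0.04). ACACA, which makes malonyl-CoA, moved the same way as FASN (-0.51 ± 0.07 and 0.20 ± 0.05) and fell in 4T1 (-0.20 ± 0.04). ACLY, the source of cytosolic acetyl-CoA, rose in SUM159PT (0.15 ± 0.04).

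APOE showed the largest change of the 30 genes in both human MYC siRNA tables. APOE was at 88.4 and 55.3 with the control siRNA in MDA-MB-436, at 384 and 408 with siMYC1 and at 393 and 352 with siMYC2. SUM159PT had 306 and 258, then 1701 and 1621, then 1823 and 2030.4. The groups were several-fold apart (2.44 ± 0.11 and 2.67 ± 0.06; adjusted p = 4.17e-17 and 4.14e-38, limma). In 4T1, Apoe was at 82.6 to 99.7 against 46.2 to 93 (-0.45 ± 0.16, adjusted p = 0.0264, limma); these groups overlapped, and the call was lost without the first or last control, the first siMYC1 or the second siMYC2 library (adjusted p up to 0.109) and with DESeq2. ABCA1 rose in both human lines (0.26 ± 0.06 and 0.38 ± 0.05) and was at 7.17 or below in every 4T1 library. APOC1 rose in SUM159PT (1.119 ± 0.083) and was at 0.03 ± 0.15 in MDA-MB-436 (adjusted p = 0.874, limma). PTPRC and CD68 were at most 10.2 and 11.1 in the groups of these human tables. The 3 endothelial markers summed to 19.4 to 22.4 with the control siRNA and 38 to 59.25 with MYC siRNA in MDA-MB-436, and to 55.8 to 66.2 against 138 to 168 in SUM159PT. The 5 mesenchymal markers summed higher with MYC siRNA in all 3 lines. The sums were 23281 to 23699 with the control siRNA against 31642 to 33550 in MDA-MB-436, and 28537 to 28593 against 44234 to 45288 in SUM159PT. In 4T1 these markers, led by Fn1, summed to 18254 to 18769 against 36635 to 40957. Epithelial markers summed higher in all 3 lines too, with 3986 to 4016 against 4755 to 4895 in MDA-MB-436. They summed to 4586 to 4594 against 5710 to 5996 in SUM159PT, and to 19290 to 20443 against 23766 to 25175 in 4T1. The part of these markers in the results was not tested. Of the other sterol and lipid genes, 25 of 48 rose and 11 fell in MDA-MB-436, 24 of 47 rose and 13 fell in SUM159PT, and 14 of 42 rose and 6 fell in 4T1. LRP1, an APOE receptor, rose in all 3 lines (2.86 ± 0.04, 1.47 ± 0.03 and 0.84 ± 0.05), from 319.6 and 304 to 2175 to 2346 in MDA-MB-436. ABCG1 rose by 2.63 ± 0.16 in MDA-MB-436, and FABP5, a fatty acid carrier, fell by 2.31 ± 0.10 in SUM159PT. When 1 library was left out, the calls lost at least once were MVD, FDPS, SQLE, CYP51A1 and STARD4 in MDA-MB-436, SQLE, NSDHL, EBP and DHCR7 in SUM159PT, and SQLE, LSS, TM7SF2, SREBF2, STARD4, SCD and APOE in 4T1.

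With a STING sgRNA, most of the 30 genes that passed were lower than in mock cells. SREBF1, MVD, DHCR7, FASN, ABCA1 and CYP51A1 fell in both lines, SC5D rose in both, and APOE fell slightly in MDA-MB-436 and rose in SUM159PT. In MDA-MB-436, 3 rose and 16 fell (47.8% of all tested genes passed, 24.8% higher and 23% lower), and in SUM159PT 3 rose and 17 fell (39.1%, 19.3% and 19.8%). The median change was -0.21 and -0.155, against 0.012 and -0.004 for all tested genes. DESeq2 called 11 of the 30 in MDA-MB-436 in place of 19. The mock libraries of MDA-MB-436 differed by little more than sampling noise. Their chi-square per gene was 1.03 over 15708 genes and 1.22 over the 22 genes of at least 20000 reads. Counting them as 1 library was not tried.

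Of the mevalonate genes, MVD was at 242 and 214 in mock MDA-MB-436 libraries, 174 and 161 in C1 and 162 and 131 in C2. The SUM159PT values were 731 and 646, then 549 and 558, then 487 and 421. Mock libraries were the highest in both lines (-0.54 ± 0.10 and -0.46 ± 0.06; adjusted p = 6.87e-05 and 1.37e-07, limma). HMGCS1 fell in SUM159PT (2730.3 and 2879.6 against 2228 to 2323; -0.30 ± 0.04) and was at 0.12 ± 0.06 in MDA-MB-436 (adjusted p = 0.0716, limma). FDPS fell in both lines (-0.15 ± 0.06 and -0.27 ± 0.04), and IDI1 rose in MDA-MB-436 (0.40 ± 0.08). In the later steps CYP51A1 was at 48.8 and 56.3 in mock, 33.1 and 33.4 in C1 and 23 and 14.3 in C2 libraries of MDA-MB-436. In SUM159PT it was at 124 and 118, then 95.8 and 101, then 47.3 and 42.2. In both lines C2 lay lowest and mock highest, with no overlap (-1.06 ± 0.22 and -0.86 ± 0.14 against mock). The CYP51A1 difference between C2 and C1 passed in SUM159PT but not in MDA-MB-436 (-0.84 ± 0.26, adjusted p = 0.115, limma). Of the neighbours of CYP51A1 within 40 genes, 20 of 49 tested rose and 3 fell in MDA-MB-436. In SUM159PT 22 of 50 rose and 7 fell. Of all tested genes, 24.8% and 19.3% rose and 23% and 19.8% fell in these lines. LSS fell in MDA-MB-436 (-0.41 ± 0.05), EBP in both lines (-0.23 ± 0.07 and -0.38 ± 0.05) and DHCR7 in both (-0.34 ± 0.07 and -0.33 ± 0.04), while SC5D rose in both (0.41 ± 0.10 and 0.23 ± 0.08). The SUM159PT value of EBP was -0.24 without the first mock library.

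All 6 control and transport genes fell in MDA-MB-436, and 4 fell and 1 rose in SUM159PT. SREBF1 was at 1509 and 1410.3 in mock, 1026 and 931 in C1 and 864 and 793 in C2 libraries of MDA-MB-436. In SUM159PT it was at 2383 and 2240.3, then 2175 and 2047, then 1851 and 1833. The fall was clear of the spread in both lines and larger in MDA-MB-436 (-0.70 ± 0.05 and -0.23 ± 0.04; adjusted p = 3e-12 and 1.08e-05, limma; the difference between lines was not tested). SREBF2 fell in MDA-MB-436 (-0.34 ± 0.05), and SCAP in both lines (-0.26 ± 0.06 and -0.20 ± 0.06). INSIG1 was at 217 and 216 against 159 to 182 in MDA-MB-436 and at 1627 and 1536 against 1382 to 1472 in SUM159PT (-0.35 ± 0.09 and -0.14 ± 0.04). The SUM159PT call was lost without the first mock library (-0.10, adjusted p = 0.14). INSIG2 fell in both lines (-0.32 ± 0.12 and -0.35 ± 0.12), and STARD4 fell in MDA-MB-436 (-0.51 ± 0.12) and rose in SUM159PT (0.19 ± 0.06). FASN was at 6324 and 6301 against 4500.4 to 5324 in MDA-MB-436 and at 11366 and 11398 against 8619 to 9944 in SUM159PT (-0.39 ± 0.03 and -0.30 ± 0.03). ACLY and SCD fell in SUM159PT (-0.21 ± 0.03 and -0.12 ± 0.03), and ACAT2 in both lines (-0.17 ± 0.07 and -0.17 ± 0.06). The SUM159PT groups of ACAT2 overlapped, with -0.07 (adjusted p = 0.458, limma) and -0.27 without the first or the second mock library.

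ABCA1 was at 603 and 611 in mock and 466 to 511 in sgRNA libraries of MDA-MB-436, and at 145 and 154 against 70 to 88.5 in SUM159PT (-0.32 ± 0.06 and -0.90 ± 0.13). APOE was at 34.3 and 27.8 in mock, 127 and 119.5 in C1 and 98.8 and 82.4 in C2 libraries of SUM159PT. All 4 sgRNA libraries were far above mock (1.74 ± 0.15, adjusted p = 1.15e-12, limma). In MDA-MB-436 it was at 120.0 and 132 against 88 to 109 (-0.35 ± 0.12), and that call was lost without the second mock library (-0.28, adjusted p = 0.191). PTPRC was at 103.8 ± 16.04 in mock and 3.0 or below in sgRNA groups of SUM159PT, and CD68 at 13.9 ± 1.97 against 8.89 or below (SD, n = 2). In MDA-MB-436 PTPRC was at 1022 ± 9.37 in mock and 1227 ± 11.65 and 1293 ± 26.9 in C1 and C2 (SD, n = 2). Basal markers summed to 204 to 216 in mock and 406 to 478 in sgRNA libraries of SUM159PT, and adipocyte markers to 23.8 to 26.9 against 75.9 to 84.4. In MDA-MB-436 the basal markers went the other way, from 1246 to 1250 in mock to 652 to 683 in sgRNA libraries. The part of these markers in the results was not tested. APOC1 was at 0.18 ± 0.125 in SUM159PT (adjusted p = 0.259, limma) and fell by 0.56 ± 0.16 in MDA-MB-436. Of the other sterol and lipid genes, 16 of 47 rose and 12 fell in MDA-MB-436, and 11 of 45 rose and 9 fell in SUM159PT; CD36 rose by 2.03 ± 0.06 in MDA-MB-436, and SMPDL3A, a lipid phosphodiesterase, by 1.15 ± 0.22 in SUM159PT. Calls lost at least once when a library was left out were FDPS, SQLE, EBP, SC5D, INSIG2, ACAT2 and APOE in MDA-MB-436, and SC5D, INSIG1, INSIG2, STARD4 and ACAT2 in SUM159PT.

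The sgRNA groups differed from each other. In SUM159PT, 9 of the 30 genes were lower in C2 than in C1 and none higher, where 19.9% of all tested genes passed (8.53% higher, 11.4% lower). The difference was -1.12 in CYP51A1, -0.45 in PMVK, -0.30 in EBP, -0.29 in MVD, -0.26 in LSS and -0.16 to -0.20 in FDPS, SREBF1, ACAT2 and FASN. LSS was at 1781 and 1729 in mock, 1930.2 and 1854 in C1 and 1572 and 1588 in C2, so the groups lay on opposite sides of mock. PMVK was at 233 and 208, then 268 and 254, then 191 and 188, again with C1 above and C2 below. Without the low-value filter none of the 9 calls held (0 of the 30 passed limma's test), with the same log2 differences. Leaving out 1 library lost the calls of MVD, FDPS, SREBF1, ACAT2 and FASN at least once, and 5 genes passed without the first C1 library. The value of MVD was -0.19 without the second C2 library (adjusted p = 0.184, limma). In MDA-MB-436, 1 of the 30 passed (0.797% of all genes, 0.131% higher and 0.666% lower): SREBF1 was lower in C2 by 0.24, with adjusted p = 0.0476, and 0.0651 after quantile normalization (limma). That call was also lost without the low-value filter, without the first C1 library (-0.17) and without the second C2 library (-0.18).

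**Figure D5:**
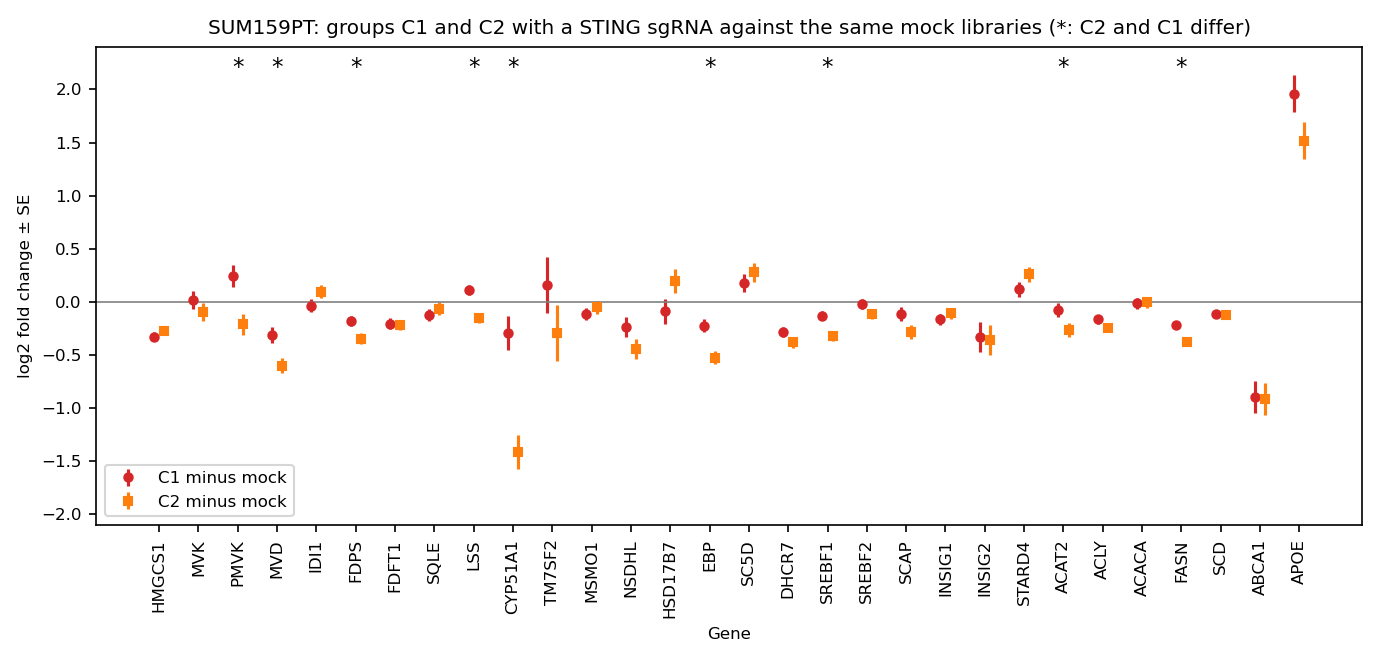
Log2 fold change ± SE (y axis) of the 30 genes (x axis) in SUM159PT groups C1 (red circles) and C2 (orange squares) against the same 2 mock libraries; a star marks the 9 genes where C2 and C1 differed by limma's test. CYP51A1 shows the widest gap between C1 and C2, and APOE is high and ABCA1 low in both.

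With a STING ORF in place of the GFP ORF in sgRNA cells, APOE fell in both lines by more than any other gene of the 30. HMGCS1, SQLE and INSIG1 rose in MDA-MB-436 and fell in SUM159PT. SREBF1, FASN and SCD fell and SC5D and STARD4 rose in both. In MDA-MB-436, 7 rose and 6 fell (21.1% of all tested genes passed, 9.2% higher and 11.9% lower), and in SUM159PT 3 rose and 13 fell (26%, 13.2% and 12.8%). The median change was -0.05 and -0.22, against -0.01 and 0.01 for all tested genes.

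HMGCS1 was at 486 and 484 with GFP and 632 and 705 with STING in MDA-MB-436. SUM159PT was at 1002 and 1063 against 659 and 655. The groups did not overlap and moved in opposite directions (0.46 ± 0.09 and -0.65 ± 0.08; adjusted p = 0.000331 and 1.94e-06, limma; the difference was not tested). Of the mevalonate genes, IDI1 also rose in MDA-MB-436 (0.41 ± 0.11), and PMVK and MVD fell in SUM159PT (-0.76 ± 0.14 and -0.59 ± 0.12). Of the later steps, 3 rose in MDA-MB-436, namely MSMO1 (149 and 137 against 198 and 235; 0.59 ± 0.13), SC5D (0.48 ± 0.13) and SQLE (0.37 ± 0.10). In SUM159PT, SC5D rose (211 and 184 against 275 and 282; 0.50 ± 0.12), and LSS, SQLE and FDFT1 fell (-0.37 ± 0.08, -0.30 ± 0.10 and -0.24 ± 0.08). SQLE was at -0.20 in SUM159PT without the second STING library (adjusted p = 0.0709, limma). CYP51A1, which differed between mock and sgRNA cells, overlapped between the ORF groups in both lines (0.02 ± 0.29 and -0.22 ± 0.20; adjusted p = 0.973 and 0.449, limma).

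INSIG1 was at 114 and 97.3 with GFP and 167 and 185 with STING in MDA-MB-436, and at 678 and 629.9 against 402 and 413 in SUM159PT. It rose in the first line and fell in the second, clear of the spread in both (0.73 ± 0.14 and -0.68 ± 0.10; adjusted p = 0.000376 and 6.32e-06, limma). SREBF1 was at 566 and 528 against 456 and 428, and at 1509 and 1504 against 1069 and 886 (-0.31 ± 0.09 and -0.63 ± 0.08), so that it was lower both with the sgRNA than in mock and with the STING ORF than with GFP. SREBF2 fell in SUM159PT (-0.56 ± 0.08). STARD4 rose in both lines (0.68 ± 0.19 and 0.31 ± 0.11), but without the second GFP library the MDA-MB-436 value was 0.44 with adjusted p = 0.126. FASN was at 4595 and 4316 against 3684 and 3431, and at 8089 and 7809.6 against 6214 and 5200.4 (-0.33 ± 0.07 and -0.48 ± 0.06). ACAT2 rose in SUM159PT (0.26 ± 0.10), with 0.17 and 0.16 without the second GFP or the second STING library (adjusted p = 0.542 and 0.164, limma). SCD fell from 2048 and 1979 to 1379 and 1435 in MDA-MB-436 and less in SUM159PT (-0.52 ± 0.07 and -0.25 ± 0.06).

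APOE was at 292 and 335 with GFP and 52.9 and 61.9 with STING in SUM159PT (-2.43 ± 0.14, adjusted p = 6.26e-13, limma). In MDA-MB-436 it was at 45 and 55.3 against 14.5 and 2.92 (-2.71 ± 0.40, adjusted p = 7.06e-06, limma). The STING libraries were lowest in both lines, but those of MDA-MB-436 differed several-fold from each other, and without the second the value was -1.71. ABCA1 fell in MDA-MB-436 (202 and 234 against 141 and 142; -0.62 ± 0.13) and overlapped in SUM159PT (-0.02 ± 0.17, adjusted p = 0.959, limma). APOC1 fell in both lines (-0.87 ± 0.22 and -0.945 ± 0.155). CD68 was at 11.8 ± 1.94 against 6.62 ± 3.34 in SUM159PT and at most 3.72 in MDA-MB-436 (SD, n = 2). PTPRC was at 0.91 ± 0.05 against 4.59 ± 1.97 in SUM159PT and at 605 ± 58.1 against 455 ± 30.8 in MDA-MB-436, lower with STING in the latter (SD, n = 2). Basal markers summed to 227 to 264 with GFP and 84.3 to 91.8 with STING in SUM159PT. The part of these markers in the results was not tested. Of the other sterol and lipid genes, 4 of 46 rose and 9 fell in MDA-MB-436 and 10 of 45 rose and 14 fell in SUM159PT, where LRP1 fell by 0.87 ± 0.10. Leaving out 1 library lost 8 of 13 calls at least once in MDA-MB-436 (IDI1, SQLE, MSMO1, SC5D, SREBF1, SCAP, STARD4 and FASN) and 8 of 16 in SUM159PT (FDFT1, SQLE, LSS, SC5D, STARD4, ACAT2, ACACA and SCD). Without the low-value filter 1 and 6 of the 30 passed.

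In Py230 cells with the Sting1 shRNA, INSIG2, HSD17B7, ACAT2, FDPS, INSIG1 and SREBF2 rose with doxycycline, and ACLY, ABCA1, CYP51A1 and MSMO1 fell. Of the 30 genes, 15 rose and 9 fell, where 67.8% of all tested genes passed (32.8% higher, 35.1% lower); the median change was 0.10, against -0.01. No group received doxycycline without the shRNA, so the agent and the knockdown cannot be told apart, and Myc fell with them from 2769.9, 3281 and 3274 to 1020.1, 964 and 998 (-1.64 ± 0.05). Markers moved as well: the 3 basal markers in the table, led by Krt14, summed to 572 to 671 with vehicle and 5270.3 to 5922 with doxycycline, and the 5 mesenchymal markers to 43423 to 44902 against 59241 to 69093. Their part in the results was not tested.

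HSD17B7 was at 349.7, 325 and 315 with vehicle and 606, 704 and 599.9 with doxycycline (0.94 ± 0.07, adjusted p = 1.2e-11, limma). FDPS rose from a low level, 20.3, 20.6 and 18.1, to 36.9, 34.3 and 32.9 (0.79 ± 0.21). HMGCS1 and MVD rose too (0.22 ± 0.05 and 0.48 ± 0.11). The later steps went both ways, with 5 higher and 5 lower: TM7SF2 and NSDHL rose (0.59 ± 0.19 and 0.59 ± 0.09), and CYP51A1 fell from 968, 1088 and 1079 to 596, 662 and 569.7 (-0.78 ± 0.06, adjusted p = 3.56e-11, limma), with MSMO1 (-0.48 ± 0.06) and EBP (-0.45 ± 0.10). Of the control genes, INSIG2 was at 519, 556 and 588 against 1292, 1273 and 1391 (1.25 ± 0.06, adjusted p = 6.6e-16, limma). SREBF2 was at 1471, 1515 and 1543 against 2358, 2505 and 2363 (0.67 ± 0.04), and INSIG1 at 352, 309 and 298 against 507, 591 and 483 (0.72 ± 0.08). All doxycycline libraries lay above all vehicle libraries for these genes, while SCAP fell (-0.22 ± 0.05), STARD4 rose (0.25 ± 0.07) and SREBF1 overlapped (-0.04 ± 0.05, adjusted p = 0.481, limma).

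ACAT2 was at 188, 147 and 151 against 325, 279.7 and 269 (0.85 ± 0.10). ACLY was at 1989, 1962 and 2075 against 1125, 1141 and 1104 (-0.84 ± 0.04, adjusted p = 2.07e-14, limma), while FASN rose by 0.12 ± 0.04, Scd1 by 0.29 ± 0.05 and its paralog Scd2 by 1.16 ± 0.04. ABCA1 was high in this line and fell from 8858, 8668 and 8974 to 4968, 5203 and 5127 (-0.79 ± 0.04, adjusted p = 1.85e-15, limma). APOE was at 72.5, 75.2 and 91.7 against 66.3, 52 and 69.4 (-0.35 ± 0.15, adjusted p = 0.0462, limma), a call that was lost with edgeR (0.0618). It was also lost without the second or last vehicle library or the second doxycycline library (-0.39, -0.25 and -0.22; limma adjusted p = 0.0529, 0.219 and 0.22). Of the other sterol and lipid genes 18 of 44 rose and 15 fell, with VLDLR, a lipoprotein receptor, falling by 2.09 ± 0.07. FDFT1 rose by 0.23 ± 0.07, or 0.15 without the second vehicle library, and DHCR7 fell by 0.16 ± 0.07, with -0.09 without the first vehicle library (adjusted p = 0.215, limma). Besides APOE, the calls of TM7SF2, SC5D and DHCR7 were lost at least once when a library was left out.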

How the data were processed

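RNA was extracted with the Maxwell RSC simplyRNA Cells Kit and sequenced on Illumina instruments, per the labels. The submitters' processing notes name HISAT2, StringTie, featureCounts and DESeq2; versions, genome build and strand setting are not given in the sources used here. The deposited tables hold, per the file headers, each gene's normalized count, a signal that the authors scaled within each table. Divided by the worth of 1 read in its library, 100% of values came out whole to within 0.05, so whole reads were recovered. Of the columns, 0 were left unmapped.

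Groups came from the labels. A gene whose mean over its table reached 10 was tested with limma 3.58.1 (R 4.3.3) on log2(normalized count + 1), with Benjamini-Hochberg adjustment over all tested genes and a threshold of 0.05; this understates changes of low genes. Perturbed groups of 1 table were averaged against their control and compared with each other. The alternatives tried were no low-value filter, quantile normalization, a pseudocount of 4, a replicate block, each reagent alone, each library left out, and edgeR 4.0.16 and DESeq2 1.42.0 on the recovered reads. On simulated data, 80.5% to 95.5% of 200 genes with 2-fold changes were recovered for the 10 comparisons, with 4 to 15 false calls each. No comparison between lines was tested.

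The 30 genes and all lists were chosen with earlier results of these data known. Genes outside the 30 were named if they were among the 3 largest called changes of the other sterol and lipid genes in a comparison, or were targets, markers or neighbours.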

Additional observations from a re-analysis of the deposited data

Results flagged for a closer look

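In the cases below, every perturbed library of one line lay above all its controls and every perturbed library of the other line below all of its own. Each value is the log2 change in the first line minus that in the second, and none of these differences was tested, since each line has its own table.

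For Tax-R against parental cells, MDA-MB-436 minus SUM159PT was 0.74 for INSIG2, which holds SCAP back, 0.69 for the sterol carrier STARD4 and 0.4 for SREBF1. It was 0.46 for FDPS and 0.47 for the desaturase SCD, all higher in MDA-MB-436 and lower in SUM159PT. FASN had the opposite order, at -0.31. When 1 library was left out, SREBF1 and FASN lost their calls at least once in both lines. INSIG2 and SCD lost theirs in SUM159PT. After quantile normalization FASN had no direction in SUM159PT.

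For MYC siRNA, MDA-MB-436 minus SUM159PT was 0.48 for SQLE, 0.71 for MSMO1 and 0.54 for INSIG2, which were higher in MDA-MB-436. It was -0.56 for DHCR7, -0.72 for ACACA and -0.86 for FASN, which were lower there.

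Between the human lines and 4T1 the values were wider. MDA-MB-436 minus 4T1 was -2.58 for HSD17B7, -2.5 for INSIG1, -1.15 for ACAT2, -1.13 for HMGCS1 and -0.9 for FDPS. It was -0.88 for SREBF2, -0.83 for DHCR7 and -0.58 for FDFT1, so all 8 genes were lower with the siRNAs in MDA-MB-436 and higher in 4T1. SUM159PT minus 4T1 was -2.83 for HSD17B7, -2.5 for INSIG1, -1.39 for HMGCS1, -1.13 for ACAT2 and -1.11 for FDPS. It was -0.7 for NSDHL, -0.64 for SREBF2, -0.62 for FDFT1, -0.58 for MSMO1, -0.53 for INSIG2 and -0.33 for SQLE, again lower in the human line. ACACA alone of these had the other order, at 0.4. The lines differ in species, in the Tax-R label and in how far MYC itself fell.

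For the STING sgRNA, MDA-MB-436 minus SUM159PT was -2.09 for APOE and -0.7 for STARD4, both lower in MDA-MB-436 and higher in SUM159PT. For the STING ORF it was 1.41 for INSIG1, 1.11 for HMGCS1 and 0.67 for SQLE, all higher in MDA-MB-436 and lower in SUM159PT.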

How the results depend on the processing

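Over all comparisons, those between reagents included, 447 of 448 values of the 30 genes kept their side of the threshold with a pseudocount of 4 and 442 of 448 with edgeR. The sign changed for 0 and 2 values, none of them called. With the sign kept, calls were lost for 14 of 448 values with quantile normalization, 50 of 448 without the filter and 52 of 296 with DESeq2. FASN in SUM159PT Tax-R cells also lost its call after quantile normalization, with a value of 0 and no direction (adjusted p = 0.99, limma). DESeq2 called fewer genes. In Tax-R cells it called 5913 of all genes in MDA-MB-436 in place of 10421, and in SUM159PT 14 of the 30 in place of 22 and 4447 of all in place of 8386. With the STING sgRNA it called 11 of the 30 and 4265 of all in MDA-MB-436 (19 and 7316 by limma), and 3198 of all in SUM159PT (5927). With the STING ORF it called 6 of the 30 and 1074 of all in MDA-MB-436 (13 and 3134), and 1626 of all in SUM159PT (3875). Without the filter, limma called 1 of the 30 and 328 of all in the MDA-MB-436 ORF table, and 6 of the 30 and 884 of all in that of SUM159PT. Between C2 and C1 it then called 0 of the 30 in SUM159PT in place of 9, and 0 in MDA-MB-436 in place of 1, as after quantile normalization (0). Group C1 alone gave 12 of the 30 in MDA-MB-436, and 13 of the 30 and 3487 of all in SUM159PT. The cause of these differences was not tested.

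Leaving out 1 library, the 30 genes gave 12 to 20 calls for the MDA-MB-436 sgRNA, 0 to 3 and 5 to 8 for C2 against C1 in MDA-MB-436 and SUM159PT, and 6 to 13 and 8 to 20 for the ORF. All genes then gave 1258 to 3608 calls for the ORF in MDA-MB-436 and 1252 to 5567 in SUM159PT. The lowest of these came without the second mock library, the first C1 library (or, in MDA-MB-436, also the second C2 library), the second STING library of MDA-MB-436 and either GFP library of SUM159PT.

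Same-numbered libraries had correlations of deviations from -0.091 to 0.11. With 2 libraries a group the deviations mirror each other, so these values cannot show whether same-numbered libraries shared a culture or batch. With the number as a replicate block, 2 genes passed between C2 and C1 in MDA-MB-436 in place of 1. The block lost no call of the 30 genes and gained 9. With 2 or 3 libraries a group, small changes could be missed.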

Other observations

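Other genes of lipid handling moved as much as the 30. SCD5, a stearoyl-CoA desaturase of a separate gene, was at 72.4 and 85.7 in parental and 350.3 and 376 in Tax-R MDA-MB-436 libraries, clear of the spread (2.19 ± 0.10, adjusted p = 1.64e-08, limma). In SUM159PT it was at 236 and 242 against 266 and 273 (0.17 ± 0.07, adjusted p = 0.0797, limma). PLIN2, a coat protein of lipid droplets, rose in both Tax-R lines, by 1.17 ± 0.21 and 0.88 ± 0.20.

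VLDLR, a receptor for triglyceride-rich lipoproteins, went both ways. In Tax-R cells it rose in MDA-MB-436 (0.62 ± 0.12), and in SUM159PT it fell from 497 and 594 to 240.4 and 224. With MYC siRNA it rose from 45.8 and 48.5 to 159 to 199.96 in MDA-MB-436 (1.90 ± 0.11) and by 0.75 ± 0.07 in SUM159PT, and it fell in 4T1 (-1.07 ± 0.14). LBR, a nuclear membrane protein with sterol reductase activity, was at 870.2 and 928 against 307 to 362 with MYC siRNA in SUM159PT (-1.47 ± 0.07). Its fall was clear of the spread. Erlin2, which takes part in the breakdown of sterol-regulated proteins, rose in 4T1 from 767 to 801 up to 1158 to 1244.

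In Py230, Npc2, which passes cholesterol out of the lysosome, fell from 1145, 1027 and 1081 to 325, 360.4 and 366 with doxycycline (-1.63 ± 0.06). Rnf139, a sterol-sensing ubiquitin ligase, fell by 1.52 ± 0.07. NPC1, the membrane partner of NPC2, fell in SUM159PT with the STING sgRNA (-0.39 ± 0.05). FABP5 fell with the STING ORF in MDA-MB-436 (-0.50 ± 0.10), a call lost without the low-value filter (adjusted p = 0.0849, limma).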
